A study of Oryza sativa Japonica Group with 20 samples.

Results

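A set of 76 rice genes stood at 20 RPKM or more in untreated roots and at no more than 25% of that level in each of 4 root libraries from seedlings exposed to sodium arsenite. RPKM is a read number divided by the length of the gene and by the size of the library. The 76 were chosen on exactly these root values, out of 57624 loci in the tables and 3967 loci at 20 RPKM or more in untreated roots (1.92%), so their low levels in treated roots are a description of the set and not a finding. What the choice did not use is their level in shoots, their response in shoots and their position. The gene lists below were drawn up with results of these libraries known, so which lists hold members is a description as well. The study exposed 14-day-old seedlings of the rice cultivar Nipponbare, grown in nutrient solution, to arsenite, the trivalent form of arsenic. Roots and shoots were each harvested after 6 h at 20 µM, 6 h at 80 µM, 24 h at 20 µM and 24 h at 80 µM arsenite, and untreated at 0 h. Each of these 10 combinations of tissue and treatment has 1 mRNA library, so no value below has a replicate error, and the labels do not say how many seedlings a library pools. All groups share the cultivar, the age and the nutrient solution.

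Roots take up arsenite mainly through channels and pumps meant for other solutes, of which the silicic acid channel Lsi1 and the silicon exporter Lsi2 are the known routes in rice. The same root cells acquire iron, nitrogen and water: grasses release chelators and take back the iron complex through YSL15, rice also takes up ferrous iron through IRT1, nitrate and ammonium enter through dedicated transporters, and water moves through aquaporins. Root growth needs wall-loosening proteins such as expansins. Genes of the photosynthetic apparatus are known chiefly from leaves, where they are among the most abundant messages, and are expressed at lower levels in roots.

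Summed RPKM per root library reached 369084 in roots at 80 µM for 6 h and was lowest, at 313836, in untreated roots, and the value of 1 read, estimated from low values, lay between 0.779 and 1.06 times that of the untreated root library. Most but not all tissue markers went with the tissue labels. Lsi2 was listed at 103.9 RPKM in untreated roots and at 0 in all 5 shoot libraries. Lsi1 had 59.7 RPKM in untreated roots against 7.1 RPKM in untreated shoots. The phosphate transporter PT8, also listed as a root marker, hardly differed, with 85.2 RPKM in untreated roots and 77.1 RPKM in untreated shoots. The summed level of 8 leaf photosynthesis genes was 303.7 RPKM in untreated roots against 2482 RPKM in untreated shoots. Low values were common in roots at the higher dose whatever the gene. Of the 3967 loci, 1289 (32.5%) were at 25% or less of the untreated level in the 80 µM 6 h library and 860 (21.7%) in the 80 µM 24 h library, with 199 (5.02%) in the 20 µM 6 h library and 169 (4.26%) in the 20 µM 24 h library. The 20 µM libraries therefore set most of the membership: without the 20 µM 6 h library the rule finds 125 loci, and without the 20 µM 24 h library 162. After scaling the root libraries by median ratios it finds 41, all among the 76. ACT1, an actin gene often used as a reference, had 121.4, 31.1, 171.3 and 76.0 RPKM in roots at 20 µM 6 h, 80 µM 6 h, 20 µM 24 h and 80 µM 24 h, against 185.0 RPKM in untreated roots. Treated values below follow this order of libraries.

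The members took up 465.3, 113.0, 463.6 and 162.3 RPKM in all in the 4 treated root libraries, against 4310.3 RPKM in untreated roots. Their median level was 4.45, 0.60, 4.90 and 1.30 RPKM in treated roots, against 34.9 RPKM in untreated roots. As a median over members, the treated level was 11.6%, 1.97%, 13.2% and 3.58% of the untreated one. The median log2 change of the members, on log2(RPKM + 1), was -2.94, -4.47, -2.73 and -3.99 against untreated roots, where the median over all 3967 loci was -0.20, -0.99, -0.23 and -0.71. The median locus was thus lower at 80 µM, and the members stood below that shift in every treated library, as the choice requires. The 4 differences share the same untreated library, so any error in that library enters all of them.

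The order of the treated root libraries comes from the values that chose the members, so the shares over all loci are given for scale and nothing is read from the gap. At 80 µM, 67 of 76 members were lower than at 20 µM after 6 h (88.2%, against 69.8% of all 3967 loci), and 64 of 76 after 24 h (84.2%, against 69.6%). Between the harvests the order was less uniform: 31 of 76 members were lower at 24 h than at 6 h in 20 µM (40.8%, against 50.8% of all loci) and 21 of 76 in 80 µM (27.6%, against 41.3%), with 15 equal at 80 µM. The highest treated value of a member fell in the 20 µM 24 h library for 41 members (53.9%, against 33.7% of all loci), the 20 µM 6 h library for 31 (40.8%, against 33.2%), the 80 µM 24 h library for 5 (6.58%, against 15.1%) and the 80 µM 6 h library for 1 (1.32%, against 18.4%). Members listed at 0 numbered 5, 33, 7 and 19 in treated roots and 0 in untreated roots, the last fixed by the rule. Of all 57624 loci, 33384, 38127, 34903 and 35315 were listed at 0 in treated roots and 32822 in untreated roots. The share at 0 among the 3967 loci was not computed, so nothing is read from the counts of members at 0. In all, 41 members were listed at 0 in at least 1 treated root library and 15 in both 80 µM libraries, while 35 stayed above 0 throughout. A listing at 0 marks no counted read or a value rounded to 0 at 1 decimal, not absence of the message. The deposited values do not give the depth. In a whole organ, fewer cells of a type and less RNA per cell cannot be told apart.

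**Figure D1:**
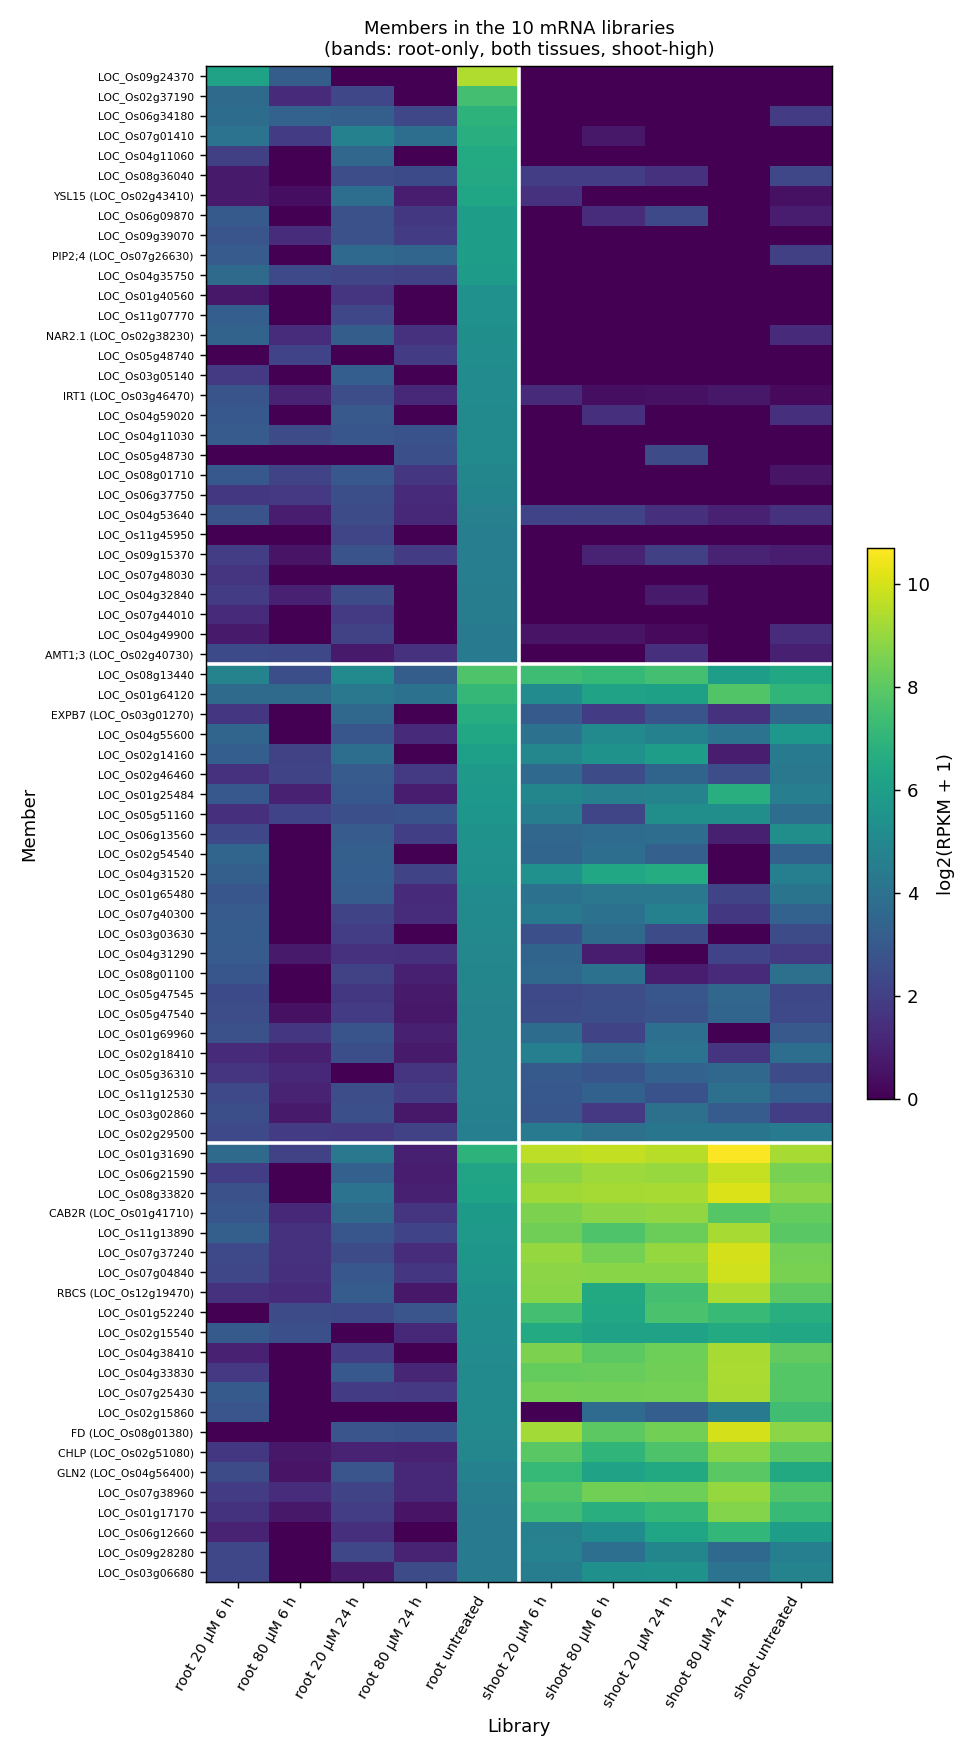
Level of each of the 76 members (rows) in the 10 mRNA libraries (columns, roots left of shoots, treated left of untreated), as log2(RPKM + 1) on a colour scale from 0 to the highest value. The untreated root column is the brightest of the root columns in every row, and the 30 members in the upper band are dark in every shoot library. The 22 members in the lower band are brightest in a shoot library, as their class requires.

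By their level in shoots the members fell into 3 classes, drawn after the values were seen. In 30 members every shoot library stood below 5 RPKM. In 24 members at least 1 shoot library reached 5 RPKM but untreated shoots stayed below untreated roots. In 22 members untreated shoots were at or above untreated roots. The classes did not stand apart in roots: their median untreated root level lay between 34.3 and 36 RPKM, and the median over members of the mean log2 change in treated roots was -3.73, -3.45 and -3.60.

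Set beside all loci at 20 RPKM or more in untreated roots, the set held more genes at both ends of the tissue range. Of the 76 members, 53 reached 1 RPKM in untreated shoots (69.7%, against 94.1% of the 3967 loci), 40 reached 5 RPKM (52.6%, against 88.6%) and 29 reached 20 RPKM (38.2%, against 59.3%). In untreated shoots 17 members were listed at 0 (22.4%, against 4.18%), and 14 were listed at 0 in all 5 shoot libraries (18.4%, against 2.5%). At the other end, 16 members were at least 4-fold higher in untreated shoots than in untreated roots (21.1%, against 1.87%). The share at or above the root level in untreated shoots was 28.9% (22 of 76), close to the background of 26.1%. These are counts from 1 untreated root and 1 untreated shoot library, with no test. The comparison of shoots with roots uses the untreated root level, which also chose the members. Any error in that library enters the choice and the comparison, so nothing is read from the gap in the 4-fold count.

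**Figure D2:**
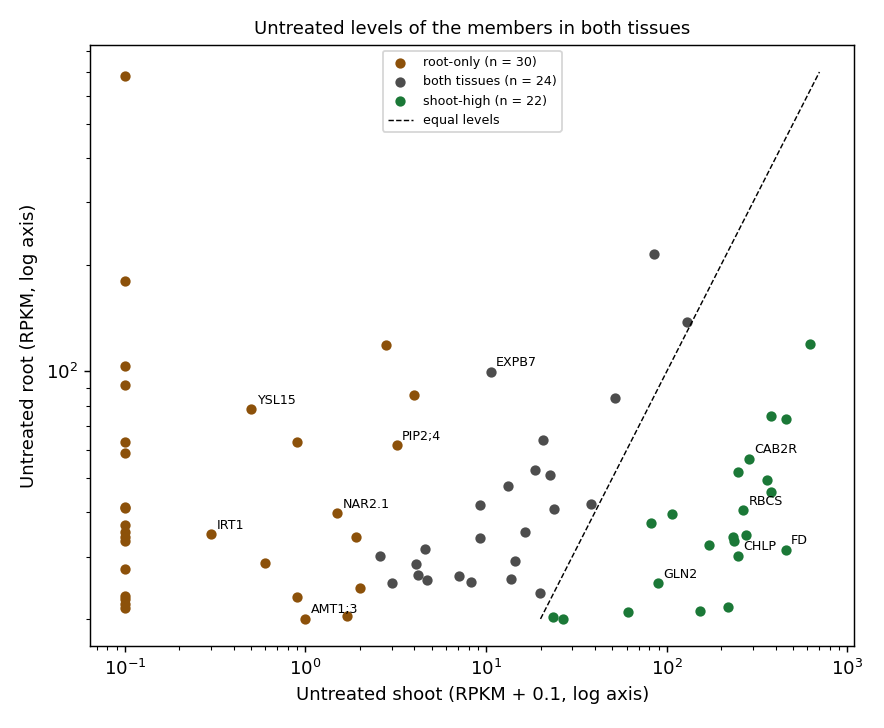
Untreated root level (vertical, RPKM, log axis) against untreated shoot level (horizontal, RPKM + 0.1, log axis) of the 76 members, coloured by class, with the line of equal levels. The column of points at the left edge holds the 17 members listed at 0 in untreated shoots, and the 22 shoot-high members lie right of the line.

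Iron uptake genes were among the root-restricted members. YSL15 (LOC_Os02g43410), the transporter that takes iron(III) bound to deoxymugineic acid back into the root, had 0.7, 0.3, 13.7 and 0.8 RPKM in treated roots, against 78.3 RPKM in untreated roots. The 20 µM 24 h library alone kept YSL15 well above 1 RPKM, at 17.5% of the untreated level. IRT1 (LOC_Os03g46470), a ferrous iron transporter, had 5.9, 1.1, 4.7 and 1.3 RPKM in treated roots, against 34.7 RPKM in untreated roots. Both were at or below 1.9 RPKM in all shoot libraries.

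Of 12 iron genes on the list, 8 reached 20 RPKM in untreated roots and 2 of them were members, as were 1.92% of all 3967 loci. All 8 stood at 25% or less in at least 1 treated root library, as did 37.1% of all 3967 loci. NAS1 and NAS2 encode nicotianamine synthases and NAAT1 a nicotianamine aminotransferase, the steps that lead to the iron chelator. NAS1 had 29.5, 0, 155.8 and 0.9 RPKM in treated roots, against 297.0 RPKM in untreated roots. NAS2 had 51.6, 1.1, 242.6 and 2.6 RPKM in treated roots, against 344.0 RPKM in untreated roots. NAAT1 had 14.0, 2.0, 42.6 and 4.7 RPKM in treated roots, against 72.9 RPKM in untreated roots. These 3 genes missed the set through the 20 µM 24 h library, the same library in which YSL15 was highest among treated roots. IRT2, a close relative of IRT1, missed it through the 20 µM 6 h library, with 31.7, 0, 4.9 and 1.4 RPKM in treated roots, against 26.7 RPKM in untreated roots. IRO3, a transcription factor of the iron response, and Nramp1, a metal transporter, were not lower in all 4: IRO3 had 117.1, 3.8, 52.7 and 26.0 RPKM in treated roots against 65.8 RPKM in untreated roots, and Nramp1 had 70.3, 4.0, 45.9 and 13.3 RPKM against 64.5 RPKM.

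Nitrogen uptake was represented by 2 of the 3 listed genes that reached 20 RPKM in untreated roots, where 1.92% of all 3967 loci were members. NAR2.1 (LOC_Os02g38230), the partner protein that NRT2 nitrate transporters need for high-affinity uptake, had 9.5, 1.6, 8.0 and 1.9 RPKM in treated roots, against 39.7 RPKM in untreated roots. The NRT2 genes themselves were low: NRT2.3 had 4.1, 0.8, 0 and 0.6 RPKM in treated roots against 6.3 RPKM in untreated roots, and NRT2.1 and NRT2.2 were at or below 0.9 RPKM in all root libraries. AMT1;3 (LOC_Os02g40730), an ammonium transporter, stood exactly at the minimum, with 4.3, 4.0, 0.7 and 1.9 RPKM in treated roots against 20.0 RPKM in untreated roots. Its name is uncertain within the neighbouring pair AMT1;2 and AMT1;3, whose order differs between the identifiers and the reference table. AMT1;1, the third gene, went the other way in 3 libraries, with 93.4, 100.1, 74.1 and 23.0 RPKM in treated roots against 67.7 RPKM in untreated roots. In shoots NAR2.1 was listed at 0 in all 4 treated libraries, against 1.4 RPKM in untreated shoots.

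Of 12 aquaporins that reached 20 RPKM in untreated roots 1 met the rule, although all 12 were lower in all 4 treated root libraries, as were 44.0% of all 3967 loci (1.92% met the rule). PIP2;4 (LOC_Os07g26630), a water channel of the plasma membrane, had 7.4, 0, 11.5 and 10.1 RPKM in treated roots, against 61.9 RPKM in untreated roots. At 80 µM 24 h it stood above its level at 20 µM 6 h. The channels nearest to it in untreated root level stood higher at 20 µM 24 h. PIP2;2 had 12.2, 0.8, 29.5 and 1.3 RPKM in treated roots, against 58.5 RPKM in untreated roots, and PIP2;3 had 8.0, 0, 23.4 and 0.5 RPKM in treated roots, against 57.5 RPKM in untreated roots.

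Among the other 9 genes, the tonoplast channel TIP1;2 had 2.3, 6.5, 15.8 and 5.2 RPKM in treated roots against 28.6 RPKM in untreated roots, and TIP2;1 had 42.2, 8.7, 116.5 and 4.0 RPKM against 133.7 RPKM. PIP2;6 had 38.2, 2.7, 77.3 and 2.1 RPKM in treated roots, against 99.8 RPKM in untreated roots. The remaining genes, PIP1;1, PIP1;2, PIP1;3, PIP2;1, TIP1;1 and TIP2;2, stayed at 22.7 RPKM or more in all treated roots.

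EXPB7 (LOC_Os03g01270), a beta-expansin, which loosens the cell wall during growth, was the highest named member in untreated roots. It had 2.2, 0, 11.2 and 0 RPKM in treated roots, against 99.8 RPKM in untreated roots. Its neighbour by identifier, EXPB8, had a like level in untreated roots and stood above EXPB7 in all 4 treated libraries, with 95.8, 35.4, 50.2 and 4.9 RPKM in treated roots against 105.4 RPKM in untreated roots. All 6 beta-expansins listed reached 20 RPKM in untreated roots and all 6 were lower in all 4 treated root libraries, against 44.0% of all loci. EXPB7 alone met the rule, as did 1.92% of all loci. EXPB2 had 32.3, 2.8, 29.0 and 0.8 RPKM in treated roots, against 99.3 RPKM in untreated roots. EXPB4 had 23.8, 0.6, 22.4 and 3.5 RPKM in treated roots, against 61.6 RPKM in untreated roots. EXPB6 kept 72.6 and 72.2 RPKM at 20 µM 6 h and 24 h and 13.6 and 7.6 RPKM at 80 µM 6 h and 24 h, against 93.0 RPKM in untreated roots, and EXPB3 had 20.3, 4.2, 24.4 and 10.1 RPKM in treated roots, against 50.8 RPKM in untreated roots. In shoots EXPB7 had 7.1, 2.7, 5.8 and 1.9 RPKM in treated libraries, against 10.5 RPKM in untreated shoots, lower in all 4. The beta-expansins, the glutamine synthetases and ferredoxin were named after their values had been seen.

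None of the genes for silicon transport, cellulose synthesis or phosphate uptake met the rule. Of these lists, 3 silicon, 8 cellulose synthase and 2 phosphate transporter genes reached 20 RPKM in untreated roots. Of all 3967 loci 1.92% met the rule, so the lack of a member among so few genes is near that share. Lsi1 and Lsi2, the known arsenite route, had 18.7, 0.4, 11.8 and 1.7 RPKM and 53.9, 1.3, 13.4 and 5.9 RPKM in treated roots, against 59.7 RPKM and 103.9 RPKM in untreated roots. Lsi1 and Lsi2 stood above 25% of untreated at 20 µM 6 h only.

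**Figure D3:**
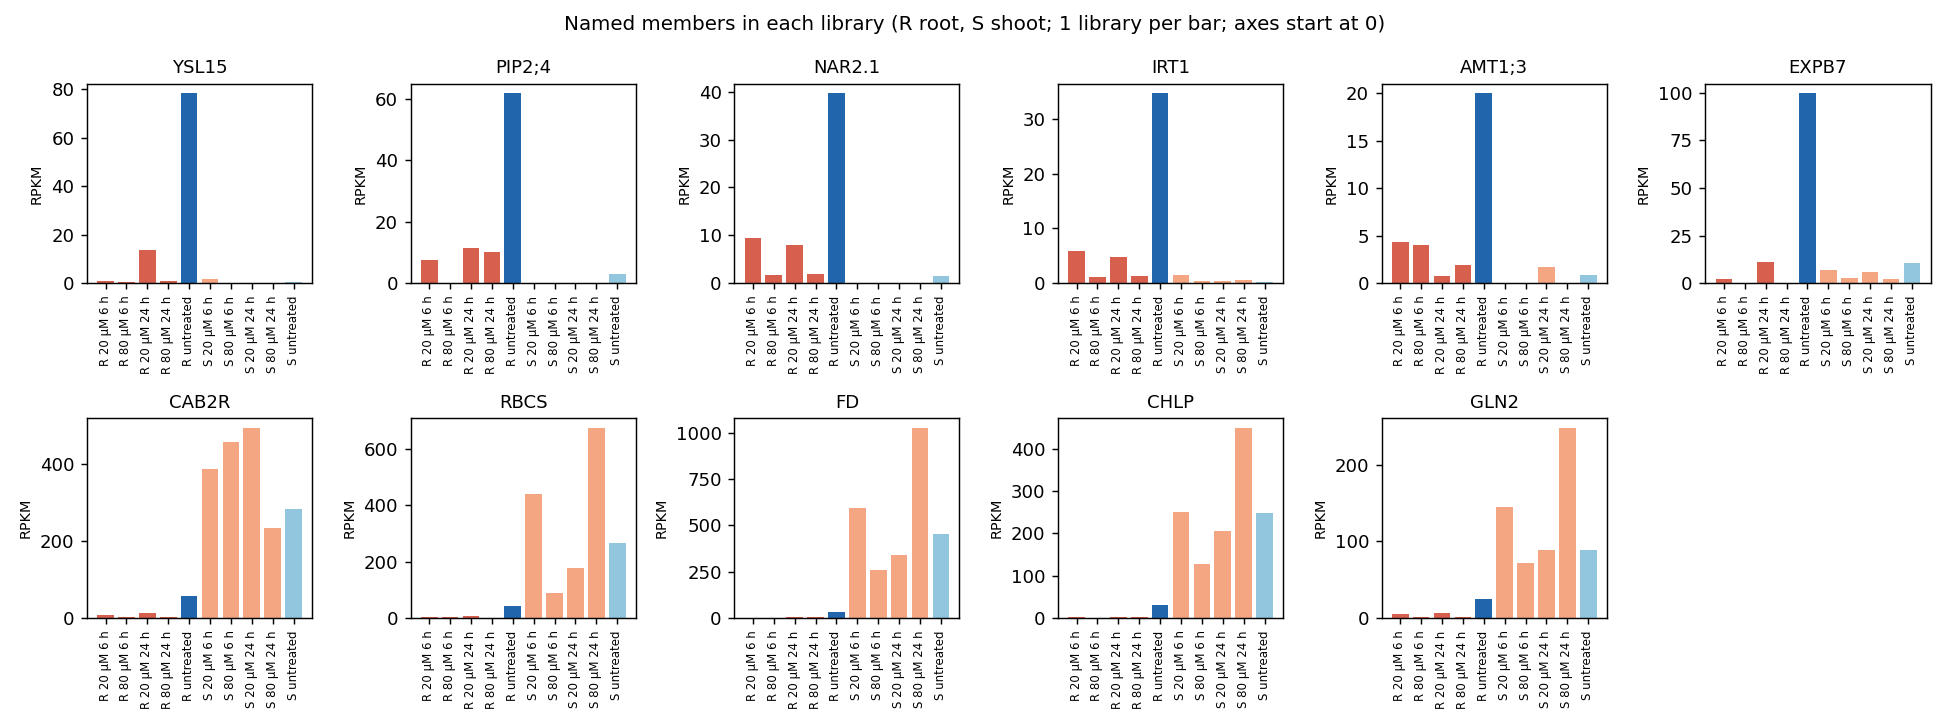
RPKM (vertical, from 0, own scale per panel) of the 11 named members in each library, roots (R) left of shoots (S) and treated (red) left of untreated (blue). The upper row, from YSL15 to EXPB7, is highest in untreated roots, and the lower row, from CAB2R to GLN2, is higher in shoots than in any root library.

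Among the 22 members at or above the root level in untreated shoots, 5 carry a name and all 5 are genes known from leaves. The other 17 carry none. Only loci on the gene lists have names, and part of the lists was drawn up for leaf genes. The 5 therefore do not characterise the 22. CAB2R (LOC_Os01g41710), a chlorophyll-binding protein of the light-harvesting complex, had 6.3, 1.3, 11.9 and 2.1 RPKM in treated roots, against 56.7 RPKM in untreated roots. RBCS (LOC_Os12g19470), a small subunit of Rubisco, had 1.9, 1.4, 7.7 and 0.6 RPKM in treated roots, against 40.6 RPKM in untreated roots. RBCS genes are near-identical copies, and the sources used here do not say how reads were split between them. CHLP (LOC_Os02g51080), the geranylgeranyl reductase that makes the side chain of chlorophyll, had 2.3, 0.6, 1.1 and 1.0 RPKM in treated roots, against 30.2 RPKM in untreated roots, and was among the 10 members with the smallest share left, at most 7.62%. FD (LOC_Os08g01380), a ferredoxin, the electron carrier after photosystem I, had 0, 0, 6.1 and 5.4 RPKM in treated roots, against 31.4 RPKM in untreated roots. GLN2 (LOC_Os04g56400), the plastid glutamine synthetase, had 4.6, 0.5, 6.1 and 1.3 RPKM in treated roots, against 25.2 RPKM in untreated roots.

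The cytosolic glutamine synthetases GLN1;1 and GLN1;2 did not meet the rule. GLN1;1 had 86.8, 47.1, 94.4 and 48.4 RPKM in treated roots, against 128.0 RPKM in untreated roots, and GLN1;2 had 36.1, 20.5, 14.9 and 24.2 RPKM in treated roots, against 53.0 RPKM in untreated roots. Both thus kept more than 25% in every treated root library. GLN1;2 came close to that limit at 20 µM 24 h, where GLN2 lay just inside it with 6.1 RPKM against 25.2 RPKM in untreated roots. GLN1;3, below the minimum level, had 5.5, 1.6, 4.3 and 1.9 RPKM in treated roots, against 2.2 RPKM in untreated roots.

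All 8 leaf photosynthesis genes on the list reached 20 RPKM in untreated roots, all 8 were lower in all 4 treated root libraries (44.0% of all loci were), and 3 were members (1.92% of all loci were). Of these 3 members, CHLP is neither a chlorophyll-binding nor a Rubisco gene, the kinds the list was planned to hold. CHLP was added outside that plan, and the count of 3 includes it. The 5 outside the set, CAB1R, RCABP89, RCABP69, PSAH and RBCS-C, summed to 39.5, 14.4, 51.3 and 31.0 RPKM in treated roots, against 176.2 RPKM in untreated roots. The whole list ranged from 17.7 to 72.0 RPKM over treated roots, against 303.7 RPKM in untreated roots, and no gene of it was at 0 in a root library. These genes also mark shoot tissue, and the part of shoot tissue in the root samples in their levels was not tested. Among all 3967 loci, 74 were at least 4-fold higher in untreated shoots than in untreated roots; 16 of them (21.6%) were members, against 60 of the other 3893 loci (1.54%). With all members left out, the remaining 58 of these loci kept in the median 56.7%, 23.5%, 53.7% and 30.9% of their untreated root level in treated roots, against 88.0%, 51.5%, 86.0% and 62.6% for the other 3833 loci. Of the 58, 35 (60.3%) were lower in all 4 treated root libraries by any amount, against 42.6% of the 3833. These loci were left out of the set by the same root values, and the gap was not tested. The 4-fold ratio itself uses the untreated root level that chose the members.

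The 16 shoot-rich members stood at 6.90% to 21.1% of the shoot level in untreated roots, with a median of 14.4%. Their summed level was 68.5, 14.3, 105.5 and 24.4 RPKM in treated roots, against 749.5 RPKM in untreated roots. The 5 members highest in untreated shoots were LOC_Os01g31690, FD, LOC_Os08g33820, LOC_Os07g04840 and LOC_Os06g21590. LOC_Os01g31690 had 12.1, 3.2, 18.5 and 0.9 RPKM in treated roots against 119.1 RPKM in untreated roots, and in shoots 800.6, 842.4, 739.1 and 1604.7 RPKM in treated libraries against 623.4 RPKM in untreated ones. LOC_Os08g33820 had 5.3, 0, 16.0 and 0.9 RPKM in treated roots, against 73.4 RPKM in untreated roots. LOC_Os06g21590 had 2.8, 0, 8.6 and 0.8 RPKM in treated roots, against 74.6 RPKM in untreated roots, and LOC_Os07g04840 had 3.9, 1.8, 6.5 and 2.2 RPKM in treated roots, against 45.5 RPKM in untreated roots. The tables give no names for these loci.

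Of the 76 members, 65 carry no name here, and they include the highest ones. LOC_Os09g24370 led the set with 70.9, 7.9, 0 and 0 RPKM in treated roots, against 683.5 RPKM in untreated roots, and was listed at 0 in all 5 shoot libraries. Its mean log2 change of -7.09 was the largest in the set, where the smallest was -2.36. LOC_Os08g13440 had 26.9, 4.9, 33.2 and 7.8 RPKM in treated roots, against 214.6 RPKM in untreated roots. LOC_Os02g37190 had 11.9, 1.4, 3.8 and 0 RPKM in treated roots, against 179.8 RPKM in untreated roots, and was at 0 in all shoots. LOC_Os01g64120 had like values at both doses, with 11.9, 12.0, 18.6 and 15.0 RPKM in treated roots against 138.1 RPKM in untreated roots. LOC_Os06g34180 had 12.6, 9.4, 8.5 and 3.8 RPKM in treated roots against 118.8 RPKM in untreated roots, and LOC_Os07g01410 had 16.0, 2.7, 24.7 and 13.7 RPKM against 103.4 RPKM.

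Further unnamed members among the 20 highest ranged from 58.9 to 91.7 RPKM in untreated roots. LOC_Os04g11060 had 3.1, 0, 10.4 and 0 RPKM in treated roots, against 91.7 RPKM in untreated roots. LOC_Os08g36040 had 0.7, 0, 4.8 and 4.3 RPKM in treated roots, against 85.9 RPKM in untreated roots. LOC_Os04g55600 had 10.1, 0, 6.2 and 1.4 RPKM in treated roots, against 84.3 RPKM in untreated roots. LOC_Os02g14160, LOC_Os06g09870, LOC_Os09g39070 and LOC_Os04g35750 had at most 13.7, 7.1, 6.0 and 12.1 RPKM in treated roots, against 64.1, 63.3, 63.3 and 58.9 RPKM in untreated roots. LOC_Os09g39070 and LOC_Os04g35750 were at 0 in all shoots.

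The 10 members with the smallest share left in their highest treated root library were at or below 9.25% of untreated. LOC_Os01g40560 was lowest, with 0.6, 0, 2.1 and 0 RPKM in treated roots against 41.4 RPKM in untreated roots, a highest share of 5.07%. LOC_Os08g36040 followed at 5.59% and LOC_Os02g37190 at 6.62%. LOC_Os04g38410 (7.56%), CHLP (7.62%), LOC_Os05g36310 (8.17%), LOC_Os06g12660 (8.61%), LOC_Os07g37240 (8.89%), LOC_Os05g48740 (9.21%) and LOC_Os07g48030 (9.25%) completed them. They spread over all 3 classes: LOC_Os01g40560, LOC_Os05g48740 and LOC_Os07g48030 were at 0 in all shoots, while LOC_Os04g38410 and LOC_Os07g37240 had 276.0 and 357.0 RPKM in untreated shoots.

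The edges of the set are gradual. Just inside the limit of 25%, GLN2, LOC_Os04g31290 and LOC_Os09g15370 had 24.2%, 24.3% and 24.7% of the untreated level in their highest treated root library. Just outside, LOC_Os02g10390, LOC_Os03g59440 and LOC_Os01g57690 had 25.1%, 25.2% and 25.2%. At the minimum level, LOC_Os03g06680, AMT1;3 and LOC_Os09g28280 were inside with 20.0, 20.0 and 20.2 RPKM in untreated roots, and LOC_Os11g26190, LOC_Os11g20160 and LOC_Os03g15320 were outside with 19.7, 19.8 and 19.9 RPKM. LOC_Os03g15320 was listed at 0 in all 4 treated root libraries.

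The rule did not use the shoot values, though roots and shoots share the treatments and the harvest times. The files of the shoot libraries labelled 20 µM 6 h and 20 µM 24 h carry each other's code in their headers. The labels are followed here, and counts over all 4 treated shoot libraries do not depend on which is which. The morning clock gene LHY set against the mean of 4 later-phased clock genes (log2) read 2.94, -0.08, -0.12 and 5.82 in treated shoots, against 3.06 in untreated shoots, so the libraries labelled 20 µM 6 h and 20 µM 24 h stood opposite to their 80 µM counterparts. In roots the same readout was -1.31, -1.74, 1.44 and -1.33 in treated libraries, against 1.78 in untreated roots. Untreated plants were harvested at lights-on and the 6 h plants later in the day, so at 6 h the effect of arsenite and that of the hour cannot be told apart. The part of the hour of day in the members' levels was not tested.

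Of the 76 members, 46 reached 5 RPKM in at least 1 shoot library, 6 of them through treated shoots alone. Among these 46, 2 were at least 2-fold lower in all 4 treated shoot libraries on log2(RPKM + 1), against a background of 1.47% (226 of 15408 loci), and 0 were at least 2-fold higher, against 0.5%. LOC_Os02g15860 had 0, 12.5, 8.1 and 20.1 RPKM in treated shoots, against 172.0 RPKM in untreated shoots, and 6.1, 0, 0 and 0 RPKM in treated roots, against 32.3 RPKM in untreated roots. It was the only one of 29 members at 20 RPKM or more in untreated shoots that stood at 25% or less in all 4 treated shoot libraries as well, where 0.599% of 4005 loci did. LOC_Os06g13560 had 10.4, 12.2, 13.1 and 0.9 RPKM in treated shoots, against 37.8 RPKM in untreated shoots, and 4.0, 0, 7.4 and 3.0 RPKM in treated roots, against 42.3 RPKM in untreated roots.

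A limma fit over all 15408 loci, with terms for treatment, dose and time in the 5 shoot libraries and 1 residual degree of freedom, called 0 loci lower (0%) and 0 higher (0%) after Benjamini-Hochberg adjustment, and 85 loci (0.552%) had an unadjusted p under 0.05. Of the 46 members, 0 were called and 1 had an unadjusted p under 0.05. That one was LOC_Os02g15860, with a log2 change of -4.60 (SE 0.98), an unadjusted limma p of 0.00627 and an adjusted p of 1.00, lower in 4 of 4 treated shoot libraries. LOC_Os06g13560 had a log2 change of -2.28 (SE 1.09) with an unadjusted limma p of 0.0933. By these counts, and not by a call, LOC_Os02g15860 and LOC_Os06g13560 were the only ones of the 46 that stood at least 2-fold below untreated in every treated library of both tissues.

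Lower values of any size in all 4 treated shoot libraries were seen in 5 of 46 members (10.9%, against 19.0% of all loci): the 2 above, EXPB7, LOC_Os02g46460 and LOC_Os04g55600. LOC_Os04g55600 had 14.7, 33.6, 25.3 and 16.0 RPKM in treated shoots, against 51.4 RPKM in untreated shoots. The opposite pattern, higher in all 4, was seen in 11 of 46 (23.9%, against 6.99%). Of these, 3 (LOC_Os05g36310, LOC_Os05g47540 and LOC_Os05g47545) had reached 5 RPKM in treated shoots alone. Among the 40 members at 5 RPKM or more in untreated shoots the count was 8 (20.0%, against 5.36% of 12248 such loci) and that of members lower in all 4 was 5 (12.5%, against 23.9%). LOC_Os01g64120 and LOC_Os09g28280, next in mean change among members at 20 RPKM or more in untreated shoots, were mixed: LOC_Os01g64120 had 34.9, 71.1, 67.7 and 222.5 RPKM in treated shoots, against 128.8 RPKM in untreated shoots, and LOC_Os09g28280 had 25.6, 13.8, 28.7 and 11.5 RPKM against 23.5 RPKM.

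In the 80 µM 24 h shoots 21 of 46 members exceeded untreated shoots at least 2-fold (45.7%, against 8.03% of all loci), and 14 fell short of them as much (30.4%, against 31.6%). Of the 21, 4 (LOC_Os03g02860, LOC_Os05g36310, LOC_Os05g47540 and LOC_Os05g47545) had entered through treated shoots alone, so their higher values were needed for them to count. Among the 40 members at 5 RPKM or more in untreated shoots, a filter chosen after seeing the data, 17 were that much higher (42.5%, against 6.16%) and 13 that much lower (32.5%, against 32.0%). In the 20 µM 6 h, 80 µM 6 h and 20 µM 24 h shoots 1, 3 and 6 members were that much higher (2.17%, 6.52% and 13.0%, against 6.08%, 9.0% and 9.98% of all loci) and 5, 6 and 4 that much lower (10.9%, 13.0% and 8.7%, against 10.4%, 12.9% and 12.3%). The median log2 change of the 46 was 0.29, -0.06, 0.24 and 0.77 in treated shoots, where the median over all 15408 loci was -0.05, 0, -0.04 and -0.48. The 2 directions were unevenly spread over the classes, which were drawn after the values were seen. The classes use the untreated shoot level, against which these changes are also taken. Shares over all loci of each class were not computed, so whether the split is particular to the members was not tested. Of the 22 shoot-high members, 15 stood above untreated shoots by 2-fold or more at 80 µM 24 h and 1 lay below by as much, with a median of 570.1 RPKM in that library against 240.9 RPKM in untreated shoots. Of the 24 members present in both tissues but lower in untreated shoots, 6 lay above by 2-fold or more, among them the 4 that had entered through treated shoots alone, and 13 below by as much, with a median of 4.15 RPKM at 80 µM 24 h against 13.4 RPKM in untreated shoots.

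Of the 5 named leaf members, FD, RBCS and GLN2 stood 2-fold or more above untreated shoots at 80 µM 24 h. FD had 592.6, 256.2, 340.7 and 1026.7 RPKM in treated shoots, against 455.4 RPKM in untreated shoots. RBCS had 441.4, 89.4, 178.9 and 675.0 RPKM in treated shoots, against 264.5 RPKM in untreated shoots. GLN2 had 144.2, 71.3, 88.3 and 247.8 RPKM in treated shoots, against 89.0 RPKM in untreated shoots. These 3 were lower than untreated at 80 µM 6 h and higher than untreated at 80 µM 24 h. CHLP was higher there by less than 2-fold, with 251.2, 128.6, 205.9 and 449.9 RPKM in treated shoots, against 247.4 RPKM in untreated shoots. CAB2R was lower there, with 387.7, 458.0, 495.4 and 235.4 RPKM in treated shoots, against 283.7 RPKM in untreated shoots. The 5 leaf genes outside the set summed to 2358.1, 2144.9, 2285.3 and 4030.5 RPKM in treated shoots, against 1686.4 RPKM in untreated shoots, so the high values at 80 µM 24 h were not limited to members; their part in the members' shares was not tested.

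The 5 members with the highest mean log2 change in treated shoots, among those at 20 RPKM or more in untreated shoots, were LOC_Os07g25430 (0.77), LOC_Os01g25484 (0.71), LOC_Os04g33830 (0.66), LOC_Os07g37240 (0.65) and LOC_Os08g33820 (0.63). LOC_Os07g25430 had 347.6, 344.1, 351.5 and 625.2 RPKM in treated shoots, against 235.2 RPKM in untreated shoots, and 7.2, 0, 2.7 and 2.4 RPKM in treated roots, against 33.1 RPKM in untreated roots. LOC_Os01g25484 had 29.4, 24.0, 26.7 and 105.9 RPKM in treated shoots, against 22.6 RPKM in untreated shoots. Both were above the untreated level in every treated shoot library, and in each the 80 µM 24 h library stood highest.

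**Figure D4:**
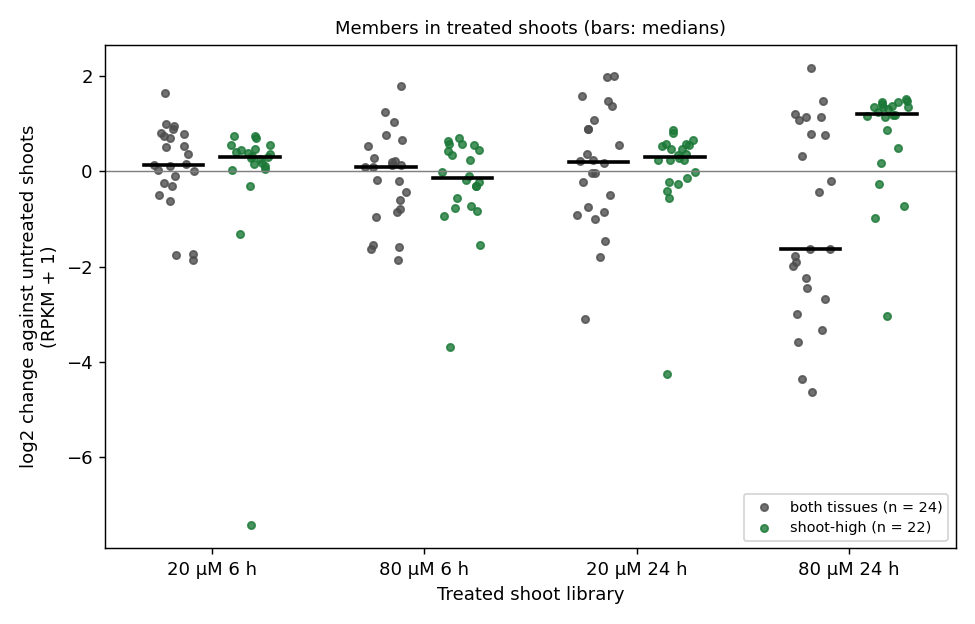
log2 change in RPKM + 1 against untreated shoots (vertical) of the 46 members that reached 5 RPKM in a shoot library, by treated shoot library (horizontal) and class, with 1 point per member and a bar at the class median. At 80 µM 24 h the median was 1.21 in the 22 shoot-high members and -1.63 in the 24 members of both tissues; the lone point near -7 at 20 µM 6 h is LOC_Os02g15860, listed at 0 there.

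The members lay on every chromosome but 10, where 217 loci stood at 20 RPKM or more in untreated roots. Chromosome 4 held 13 members (3.83% of its loci at 20 RPKM or more in untreated roots). Chromosome 2 held 12 (2.42%), against 1.92% over all chromosomes. Within 5 loci in the order of identifiers, 6 members had another member (7.89%, against 1.98% of the other 3891 loci at 20 RPKM or more), in 3 pairs, and 4 members had one as the very next locus (5.26%, against 0.283%); no run of 3 or more occurred. LOC_Os05g47540 and LOC_Os05g47545 had nearly the same values, 4.8, 0.4, 2.7 and 0.6 RPKM and 4.3, 0, 2.3 and 0.7 RPKM in treated roots, against 26.6 and 28.5 RPKM in untreated roots; whether they share reads is uncertain, since the sources used here do not describe the counting. LOC_Os05g48730 and LOC_Os05g48740 had at most 5.2 and 3.4 RPKM in treated roots, against 33.2 and 36.9 RPKM in untreated roots. LOC_Os04g11030 and LOC_Os04g11060 had at most 7.3 and 10.4 RPKM in treated roots, against 34.1 and 91.7 RPKM in untreated roots, and were at 0 in all shoots.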

How the data were processed

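For each mRNA library the authors deposited RPKM values of 57624 MSU loci, rounded to 1 decimal, which give no absolute depth. BWA is named in the submitters' processing notes; the sources used here do not give its version, the genome build, the annotation or the counter. Per the labels' protocols, oligo(dT) selection was followed by random-hexamer priming and paired-end sequencing. The miRNA tables were not used here.

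Values were used as deposited, or as log2(RPKM + 1), which understates changes of low genes. Root values chose the members and were not tested. In shoots, treatment, dose and time were fitted with limma 3.58.1 (R 4.3.3; intensity trend, Benjamini-Hochberg adjustment at 0.05) to loci at 5 RPKM or more in at least 1 shoot library. With 1 residual degree of freedom, p-values measure how effects vary between these libraries, not a spread between replicates. The fit was also run on simulated data with the same spread for every locus, a setting that differs from these libraries. Its outcome is not reported here, and nothing is read from it.

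Members and gene lists were chosen with earlier results of these data known. Named were members with a gene name, the 20 highest in untreated roots, the 10 with the smallest share left, those next to each threshold, and the extremes in shoots. Names for 83 loci came from general knowledge of rice genes, checked by chromosome and order against RefSeq ASM3414082v1, which lists 0 MSU identifiers. Alternatives covered thresholds, pseudocounts, filters, scaling and single libraries. Python 3.11.15, numpy 2.4.6, pandas 2.3.3 and matplotlib 3.10.9 were used.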

Additional observations from a re-analysis of the deposited data

Results flagged for a closer look

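In 12 of the 76 members every treated shoot library was above untreated shoots while every treated root library was below untreated roots. The share over all loci without a shoot filter was not computed, so nothing is read from the count of 12. Among the 46 members that reached 5 RPKM in a shoot library, 11 were higher in all 4 treated shoot libraries (23.9%, against 6.99% of 15408 loci). The root direction is fixed by how the members were chosen, and the difference between the tissues was not tested. The mean log2 change in treated shoots was 0.77 for LOC_Os07g25430, 0.71 for LOC_Os01g25484, 0.69 for LOC_Os05g36310, 0.66 for LOC_Os04g33830, 0.63 for LOC_Os08g33820 and 0.62 for both LOC_Os06g21590 and LOC_Os07g38960. It was 0.60 for LOC_Os01g31690, 0.52 for LOC_Os07g04840, 0.49 for LOC_Os05g47545 and 0.46 for LOC_Os05g47540. IRT1 had 0.45, with shoot values of 1.5, 0.3, 0.4 and 0.6 RPKM in treated libraries against 0.2 RPKM in untreated shoots, below the level considered in shoots. LOC_Os05g36310, LOC_Os05g47540 and LOC_Os05g47545 reached 5 RPKM in treated shoots alone.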

How the results depend on the processing

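The size of the set depends on its thresholds. It counted 76 loci as defined, 148 with a minimum of 10 RPKM, 23 with a minimum of 50 RPKM, 357 with all treated values at most 1/2 of untreated and 20 with at most 1/8. Scaling the root libraries by median ratios left 41 loci, all among the 76. Leaving out 1 treated root library gave 77 to 162 loci: 125 without 20 µM 6 h and 162 without 20 µM 24 h. Of the 46 members considered, 2 were at least 2-fold lower in all 4 treated shoot libraries as reported (226 of 15408 loci). With no filter the count was 5 of 62 members (697 of 27600 loci). Among the 9 members considered under the limit of 1/8 it was 0. Leaving out any 1 treated shoot library gave 2 each time. No alternative tried gave a member at least 2-fold higher in all 4, and none of the 7 other limma fits called a locus; their unadjusted p-values under 0.05 numbered 55 to 1618, the last with no filter. The median root log2 change of the members was -3.61 with a pseudocount of 1 and -2.43 with a pseudocount of 5. Of 51 recomputed changes of named members, 7 moved by more than their spread over treated libraries, all in roots and under another pseudocount. Counts of members in untreated shoots and of members near each other kept within 1.5 times. No paired analysis was possible because each group has 1 library, so the groups compared share only 1 replicate number.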
